A study of Mus musculus with 2 samples.

Results

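The genes described here are 10 mouse genes for making piRNAs: *Piwil2*, *Mov10l1*, *Pld6*, *Tdrkh*, *Asz1*, *Tdrd5*, *Tdrd1*, *Tdrd12*, *Gtsf1* and *Fkbp6*. They were taken as the rows of a germ cell count table whose Ensembl identifiers carry these symbols, which gave 10 of 42422 genes. PIWI-interacting RNAs (piRNAs) are small RNAs of the germline that guide PIWI proteins to transposon transcripts. In fetal male germ cells, long precursor RNAs are cut and trimmed on the mitochondrial surface and loaded onto PIWI proteins. The loaded proteins cut transposon RNAs, the products seed further piRNAs in the ping-pong cycle, and nuclear piRNAs direct DNA methylation to transposons.

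XX and XY germ cells were sorted by an Oct4-eGFP reporter, a GFP transgene driven by *Pou5f1* sequences, from wild-type embryos of an ASMU Swiss by 129svJT2 cross at E12.5, and each library came from several pooled gonads. They were sorted at once (0 h) or after the gonad with its mesonephros had been cultured with DMSO, the solvent, for 24 or 72 h, and XY gonads were also cultured for 24 or 72 h with 500 nM of the FGFR1-3 inhibitor BGJ398 (FGFRi) or of the MEK1/2 inhibitor PD0325901 (MEKi). The 10 groups were XX 0 h, XX 24 h DMSO, XX 72 h DMSO, XY 0 h, XY 24 h DMSO, XY 24 h FGFRi, XY 24 h MEKi, XY 72 h DMSO, XY 72 h FGFRi and XY 72 h MEKi, with 4 libraries each. The inhibitors were given to the whole gonad, so effects on the germ cells themselves and effects through somatic cells cannot be told apart.

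Positions are those of the GRCm39 build. *Piwil2* (ENSMUSG00000033644; chr14:70609365-70666832, minus strand) encodes MILI, the PIWI protein that cuts transposon RNAs in fetal germ cells. The precursor processing genes were *Mov10l1* (ENSMUSG00000015365; chr15:88867085-88939371, plus strand), an RNA helicase that brings precursors to processing, and *Pld6* (ENSMUSG00000043648; chr11:59656064-59678491, minus strand), the mitochondrial endonuclease that cuts them. *Tdrkh* (ENSMUSG00000041912; chr3:94320453-94342614, plus strand) encodes a mitochondrial Tudor protein needed for trimming. *Asz1* (ENSMUSG00000010796; chr6:18050848-18109060, minus strand) encodes an ankyrin-repeat protein of the same mitochondrial sites, and *Tdrd5* (ENSMUSG00000060985; chr1:156079844-156131310, minus strand) a Tudor protein that binds precursors. *Tdrd1* (ENSMUSG00000025081; chr19:56814641-56858444, plus strand) encodes the Tudor scaffold that holds MILI in the intermitochondrial cement. The ping-pong genes were *Tdrd12* (ENSMUSG00000030491; chr7:35166372-35237216, minus strand), a helicase with Tudor domains, *Gtsf1* (ENSMUSG00000022487; chr15:103310407-103338897, minus strand), a zinc finger cofactor of PIWI cutting, and *Fkbp6* (ENSMUSG00000040013; chr5:135320558-135378976, minus strand), a co-chaperone.

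The 250 bases before the annotated start of each gene's canonical transcript were read from the GRCm39 genome, since 8 of the 10 genes were called higher in XY than in XX cells at 72 h. The 6-base word CACGTG, an E-box of the kind bound by basic helix-loop-helix factors, was present in 4 of the 10 windows, against 8.18% of the windows of 12419 protein-coding genes tested. The word reads the same on both strands, and the match is a description of the letters only. It does not follow the calls at 72 h: *Mov10l1*, which has the word, was not called. *Tdrd5*, *Piwil2* and *Gtsf1*, which were called, lack it. Neither TCCCGC, an E2F-type word, nor CAGTTG, a MYB-type word, was present on either strand of any of the 10 windows, against 26.0% and 9.20% of all windows. The 4 windows with CACGTG are shown 5′ to 3′ on the gene's strand with the word in capitals. They are *Mov10l1* (chr15:88866835-88867084, word 134 bases before the start), *Pld6* (chr11:59678469-59678718, 48 bases), *Tdrd1* (chr19:56814391-56814640, 11 bases) and *Fkbp6* (chr5:135378977-135379226, 23 bases).
Mov10l1: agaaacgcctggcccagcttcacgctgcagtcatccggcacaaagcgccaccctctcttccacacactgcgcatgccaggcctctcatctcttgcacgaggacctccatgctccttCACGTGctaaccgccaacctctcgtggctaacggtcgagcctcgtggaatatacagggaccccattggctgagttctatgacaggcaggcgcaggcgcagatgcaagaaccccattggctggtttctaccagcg
Pld6: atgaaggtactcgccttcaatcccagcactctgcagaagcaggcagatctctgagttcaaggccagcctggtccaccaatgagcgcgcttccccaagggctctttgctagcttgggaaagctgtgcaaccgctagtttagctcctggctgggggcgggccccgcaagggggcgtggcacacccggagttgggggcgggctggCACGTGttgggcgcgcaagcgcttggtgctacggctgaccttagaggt
Tdrd1: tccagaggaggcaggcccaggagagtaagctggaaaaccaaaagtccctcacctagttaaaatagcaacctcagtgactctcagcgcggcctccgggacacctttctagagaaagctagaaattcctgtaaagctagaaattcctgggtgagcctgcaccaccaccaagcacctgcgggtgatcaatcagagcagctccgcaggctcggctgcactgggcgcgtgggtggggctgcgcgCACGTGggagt
Fkbp6: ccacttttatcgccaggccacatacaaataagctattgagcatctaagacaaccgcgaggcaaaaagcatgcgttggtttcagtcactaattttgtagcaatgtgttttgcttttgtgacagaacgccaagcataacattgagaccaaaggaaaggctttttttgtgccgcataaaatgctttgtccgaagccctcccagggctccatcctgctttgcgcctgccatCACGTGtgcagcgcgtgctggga
The number of CpG dinucleotides in the 10 windows ran from 5, in both *Tdrd12* and *Gtsf1*, to 18 in *Tdrd5*, beside a median of 13 over all windows.

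The 40 libraries held between 1178953 and 5199153 counts (median 2135128.5), and all 10 genes were counted in all 40 libraries, the lowest count being 5. Levels are given as counts per 1000000 after TMM scaling (CPM). A gene was called changed where limma's treat test against a 1.5-fold change gave a Benjamini-Hochberg adjusted p below 0.05 over the 15252 genes tested. The libraries were made in 2 pools, the first with the 0 h groups, XX and XY 24 h DMSO and XY 24 h MEKi, the second with XY 24 h FGFRi and the 72 h groups, so the change from 0 h or 24 h to 72 h and the pool cannot be told apart, nor can 24 h FGFRi against 24 h DMSO. Comparisons of XY with XX at 1 time, of both inhibitors at 72 h and of MEKi at 24 h lay within a pool. Of the first pool's libraries, 16 carried the sample index of a library in the second pool. The 4 XX 24 h libraries, whose partners were XY 72 h FGFRi libraries, held 88 counts of 4 Y-linked genes, which is 4.20% of the 2097 in their partners. The XX 0 h libraries, whose partners were XX, held 21. The comparisons that rest on these 16 libraries were therefore repeated after 4.20% of the partner's count was taken from each gene. They are given as counted, with the value after removal beside them where removal changed a call, ended a stated separation or moved a stated fold change by more than 1.5 times. The 4 Y-linked genes summed to 5.60 to 19.3 CPM in XX 24 h and 0.836 to 4.90 CPM in XX 0 h. In XX 72 h DMSO, whose index partners were also XX, they summed to 3.23 to 4.82 CPM. No such background was taken off the 4.20%, which may therefore be too high. Whether all those counts came through the index was not tested. XY 24 h DMSO replicate 3 was the highest of its 4 libraries for all 10 genes, and without it, as with it, 0 members were called for XY 24 h against 0 h and for either inhibitor at 24 h (limma treat). XX 24 h DMSO replicate 6 was the highest of its group for 8.

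The 8 germ cell markers, among them *Ddx4* and *Dazl*, summed to 2121 to 5818 CPM over the 40 libraries. The 29 markers of gonadal somatic, endothelial, blood and macrophage cells summed to 82.7 to 638 CPM, the highest in the XY 24 h MEKi libraries (299 to 638 CPM, against 89.4 to 270 CPM in XY 24 h DMSO). The 7 erythroid markers among them gave 212 to 544 and 38.9 to 143 CPM in these 2 groups. In XY 0 h the 29 markers summed to 121 to 541 CPM. At 72 h they summed to 168 to 226 CPM with DMSO, 128 to 187 CPM with FGFRi and 121 to 214 CPM with MEKi, of which 2, 2 and 0 markers were at 0 in all libraries of the group. In bulk samples such as these, fewer germ cells of 1 state and less RNA per cell cannot be told apart.

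Cultured XY germ cells raised most of the set between 24 and 72 h. From 0 h to 72 h with DMSO, 7 of the 10 genes rose (percent called higher over all genes tested, 20.2), from *Gtsf1* at 23.3-fold and *Tdrd1* at 16.9-fold down to *Tdrd5* at 2.28-fold. The median log2 fold change was 1.74 over the 10 genes and 0.06 over all genes tested. From 24 h to 72 h, 6 rose (percent called higher, 16; 7 without XY 24 h DMSO replicate 3 or with the index-tied counts removed, the added gene being *Pld6* both times), and from 0 h to 24 h none was called (percent called in either direction, 2.94), 1 having an unadjusted p under 0.05. The groups XY 72 h DMSO and XY 72 h FGFRi gave the 2 highest means for 8 of the 10 genes, all but *Tdrd12* and *Tdrkh*.

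**Figure D1:**
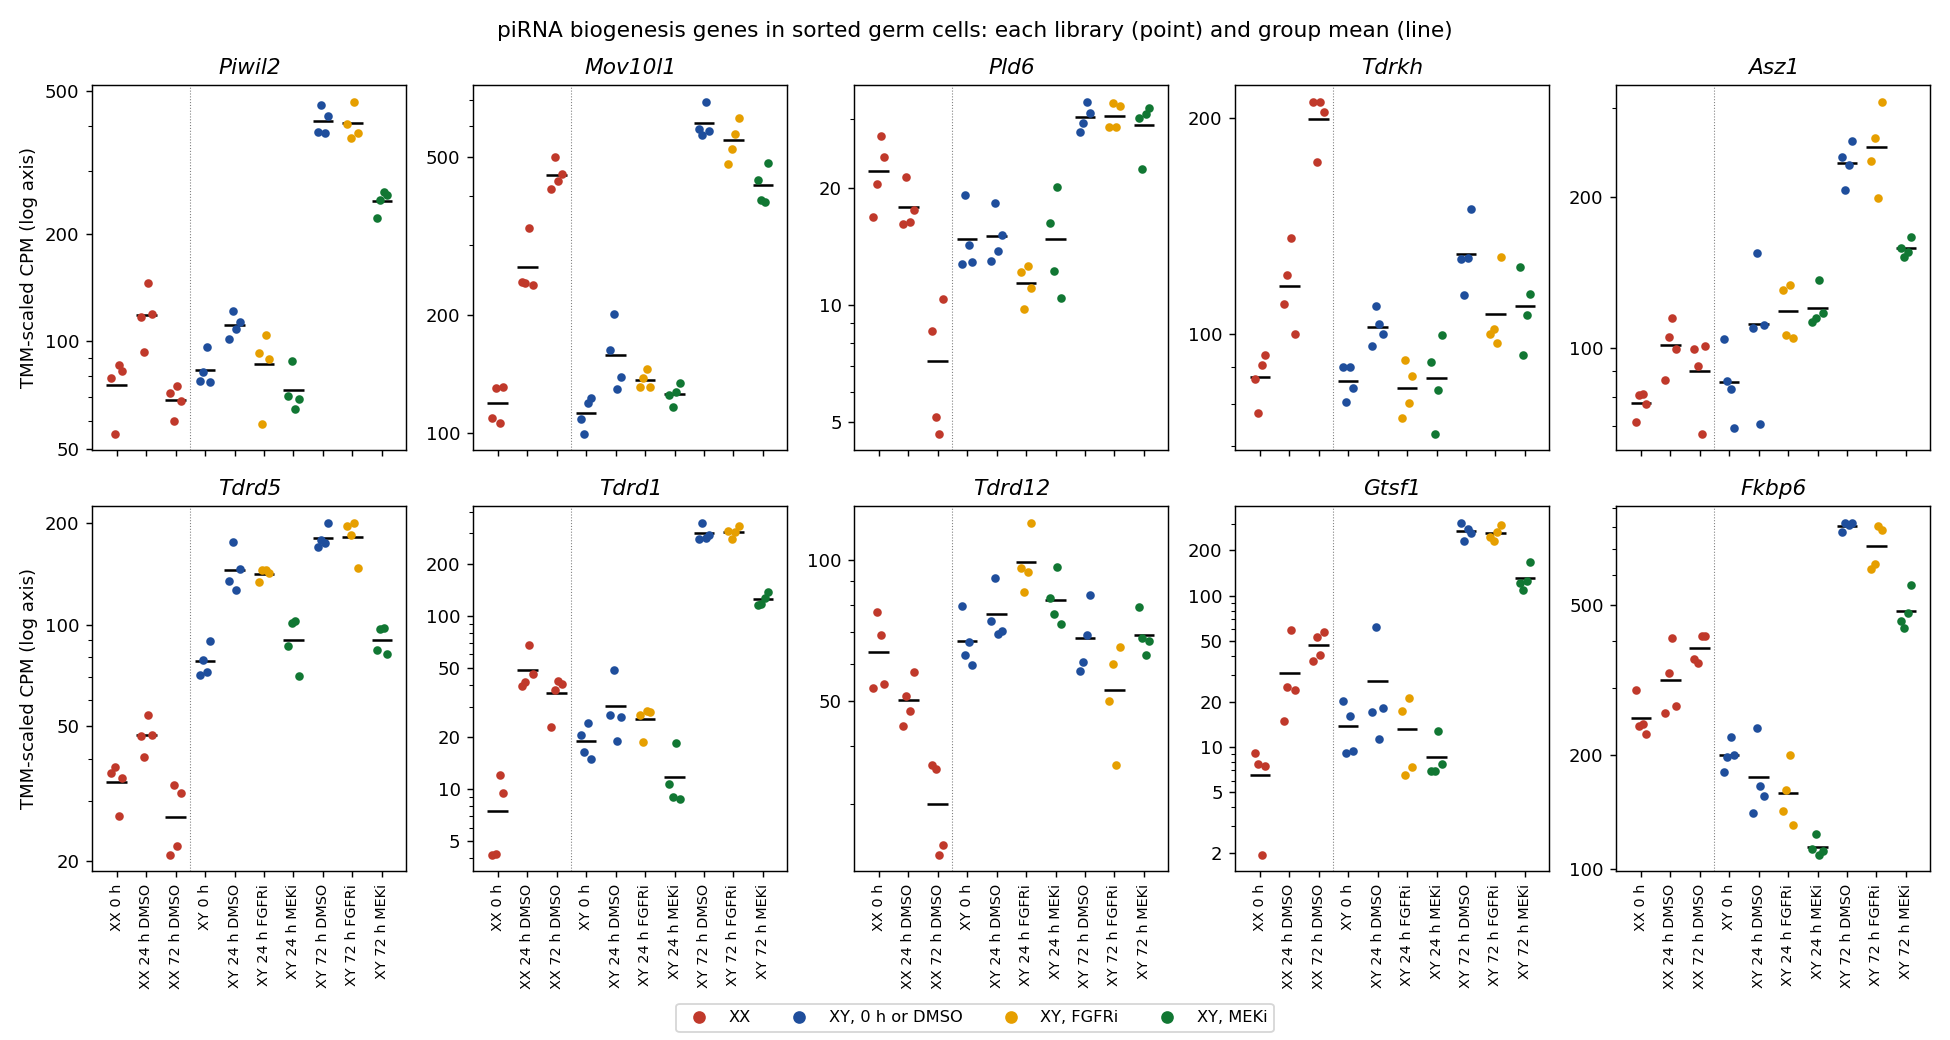
Each panel plots 1 gene in the 40 libraries, with the group on the horizontal axis and TMM-scaled CPM on a log vertical axis; points are libraries and black lines are group means (n = 4). *Piwil2*, *Tdrd1* and *Gtsf1* were highest in the XY 72 h DMSO and FGFRi libraries, lower with MEKi and lower again in every other group, while *Tdrkh* was highest in XX 72 h DMSO.

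*Piwil2* stood at 77.2, 77.7, 82.2 and 96.2 CPM in the XY 0 h libraries, at 102, 108, 113 and 122 CPM after 24 h and at 383, 386, 427 and 459 CPM after 72 h with DMSO. The groups did not overlap at any step, but only the later step passed the test. The log2 fold change of 72 h over 0 h was 2.32 ± 0.12 (SE, n = 4 and 4; limma treat, adjusted p = 3.22e-18), and that of 24 h over 0 h was 0.43 ± 0.13 (adjusted p = 1). With the index-tied counts removed the 72 h change was 2.58.

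Among the precursor processing genes, *Mov10l1* was at 99.9 to 123 CPM at 0 h, 129 to 200 CPM at 24 h and 569, 585, 592 and 693 CPM at 72 h, a rise of 2.46 ± 0.11 on the log2 scale from 0 h (limma treat, adjusted p = 3.69e-21). *Asz1* rose 2.76-fold, from 85.6 ± 14.2 CPM (SD, n = 4) to 234 ± 21.4 CPM. *Tdrd5* moved more before 24 h than after it. It was at 71.1, 72.2, 78.6 and 89.4 CPM at 0 h, at 126, 134, 146 and 175 CPM at 24 h and at 170, 174, 178 and 200 CPM at 72 h. The log2 change to 24 h, 0.86 ± 0.12, missed the test against 1.5-fold (adjusted p = 0.234), and that from 24 h to 72 h was 0.33 ± 0.11, with overlapping libraries. *Pld6*, whose counts were among the lowest of the set, went from 14.8 ± 3.02 CPM to 30.4 ± 2.40 CPM without overlap and missed the call (log2 0.94 ± 0.19, adjusted p = 0.0826), which it passed with the index-tied counts removed (log2 1.04, adjusted p = 0.0349). *Tdrkh* went from 86.2 ± 4.68 CPM to 129 ± 14.9 CPM, 1.51-fold, and was not called (adjusted p = 0.795).

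The scaffold gene *Tdrd1* was at 14.9, 16.3, 20.6 and 24.1 CPM in XY 0 h, at 18.9, 26.0, 27.0 and 49.0 CPM after 24 h and at 278, 282, 295 and 346 CPM after 72 h. All of the 72 h libraries lay above the earlier ones, and the 0 h and 24 h libraries overlapped as counted but not with the index-tied counts removed. Between 41.4% and 73.9% of its XY 0 h counts were what 4.20% of the partner's count would give. With those removed its 0 h mean was 7.56 ± 1.70 CPM in place of 19.0 ± 4.17 CPM, and the log2 rise to 72 h was 5.19 in place of 4.08.

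Of the ping-pong genes, *Gtsf1* went from 9.08, 9.41, 16.0 and 20.2 CPM at 0 h to 231, 262, 278 and 306 CPM at 72 h. The log2 rise was 4.54 ± 0.28 (limma treat, adjusted p = 1.32e-17) as counted and 6.71 with the index-tied counts removed, where the 0 h mean was 3.80 ± 4.41 CPM. The XY 24 h DMSO libraries were uneven for this gene, at 11.3, 17.1, 18.1 and 62.5 CPM. *Fkbp6* rose 4.05-fold, from 201 ± 17.8 CPM at 0 h to 809 ± 20.2 CPM at 72 h, after a mean of 174 ± 42.3 CPM at 24 h. *Tdrd12* did not follow the others: it was at 59.6 to 79.9 CPM at 0 h and at 57.7 to 84.3 CPM at 72 h, with a log2 change of 0.00 and a 95% interval of -0.29 to 0.29.

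In XX germ cells some members rose by 24 h. By 72 h, 2 of 10 were called below their 0 h level, near the share over all genes tested (percent called lower, 18.4). The change from 0 h to 24 h was not tested between the sexes. By 24 h with DMSO, 3 of 10 had risen over XX 0 h (percent called higher, 2.32): *Tdrd1*, *Gtsf1* and *Mov10l1*. *Tdrd1* was at 4.20, 4.25, 9.47 and 12.0 CPM at 0 h and at 39.5, 41.6, 46.3 and 68.4 CPM at 24 h, 5.68-fold higher (limma treat, adjusted p = 9.56e-07). After removal of the index-tied counts its 24 h mean was 30.5 ± 2.97 CPM and the rise was still called, at a log2 of 2.11. *Mov10l1* rose 2.11-fold, and its log2 value was 1.08 with and without removal. *Gtsf1* rose from 6.57 ± 3.16 CPM to 31.0 ± 19.8 CPM, but with removal the log2 change fell from 2.17 to 1.64 and was no longer called (adjusted p = 0.465), and it was also lost without XX 0 h replicate 4 (log2 1.61, adjusted p = 0.166) and with no filter on low counts (adjusted p = 0.0632).

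From 24 h to 72 h no member was called in XX cells (percent called in either direction, 22.2), 3 having an unadjusted p under 0.05. This count of 0 did not hold elsewhere: the 11 alternatives called 1 to 7 members, and 5 of the 8 omissions of 1 library (XX 24 h replicates 4 and 6, XX 72 h replicates 4, 8 and 11) called 1 to 2. *Pld6* was lower at 72 h than at 24 h by a log2 of -1.26 ± 0.29 (limma treat, adjusted p = 0.0552), and was called lower under 6 of those alternatives. *Piwil2* (-0.75), *Tdrd5* (-0.76) and *Tdrd12* (-0.73) were, like *Pld6*, lower without overlap and not called (percent lower without overlap over all genes tested, 24.8). With the index-tied counts removed, 3 were called higher over this step, *Gtsf1*, *Mov10l1* and *Tdrkh*, and *Tdrd5* overlapped. Over the whole 72 h, 4 rose (percent called higher, 18.8) and 2 fell (percent called lower, 18.4), and the same 6 were called after removal. *Gtsf1* rose 8.77-fold to 47.1 ± 9.82 CPM (log2 3.13, and 3.87 with removal), *Tdrd1* 4.22-fold to 35.8 ± 8.76 CPM and *Mov10l1* 3.77-fold to 452 ± 35.7 CPM. *Tdrkh* rose 2.26-fold, to 173, 204, 210 and 211 CPM, which were the 4 highest libraries for this gene in the study. *Pld6* fell from 16.8, 20.5, 24.0 and 27.2 CPM to 4.68, 5.16, 8.57 and 10.4 CPM (log2 -1.63 ± 0.28; limma treat, adjusted p = 0.000872), and *Tdrd12* fell from 63.4 ± 11.7 CPM to 30.0 ± 6.96 CPM (log2 -1.05 ± 0.18, adjusted p = 0.0208). The *Tdrd12* call was lost without XX 0 h replicates 3 or 4 or XX 72 h replicates 7 or 8 (adjusted p = 0.0647, 0.05003, 0.0581 and 0.134), and with DESeq2 size factors or DESeq2's own test (adjusted p = 0.0605 and 0.0755). *Piwil2* was at 75.7 ± 13.96 CPM at 0 h, 119 ± 21.1 CPM at 24 h and 68.6 ± 6.49 CPM at 72 h in XX cells, where no step passed the test.

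Compared between the sexes at each time, the set moved from 1 called gene to 8. At 0 h *Tdrd5* alone was higher in XY than in XX cells (percent called higher, 1.34), at 77.8 ± 8.38 CPM against 34.1 ± 4.78 CPM, 2.36-fold (limma treat, adjusted p = 0.00081). At 24 h it was again the only one called (percent called higher, 4), 3.09-fold higher in XY cells. At 72 h, 8 of 10 were higher in XY (percent called higher, 22.8), with a median log2 difference of 1.66 over the 10 genes and 0.10 over all genes tested. The libraries of the 2 sexes did not overlap for any of the 10 genes at 72 h (percent without overlap in either direction over all genes tested, 58.5).

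The largest differences at 72 h were those of *Tdrd1* (8.76-fold; 300 ± 31.5 CPM in XY and 35.8 ± 8.76 CPM in XX), *Tdrd5* (6.57-fold; 181 ± 13.5 and 27.1 ± 6.50 CPM), *Piwil2* (6.04-fold; 414 ± 36.0 and 68.6 ± 6.49 CPM) and *Gtsf1* (5.70-fold; 269 ± 31.3 and 47.1 ± 9.82 CPM). *Pld6* was 4.00-fold higher in XY, *Asz1* 2.51-fold, *Tdrd12* 2.16-fold and *Fkbp6* 2.12-fold. The *Tdrd12* call was lost without XX 72 h replicate 8 (adjusted p = 0.0863). The 2 that were not called stood on both sides. *Mov10l1* was at 417, 437, 454 and 501 CPM in XX and 569, 585, 592 and 693 CPM in XY, a log2 difference of 0.43 ± 0.10. *Tdrkh* was lower in XY, at 113, 127, 128 and 149 CPM, with a log2 difference of -0.63 ± 0.10 (limma treat, adjusted p = 0.549). The *Tdrd12* difference goes with a lower level in XX cells at 72 h than at 0 h, as its XY level at 72 h overlapped that at 0 h.

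**Figure D2:**
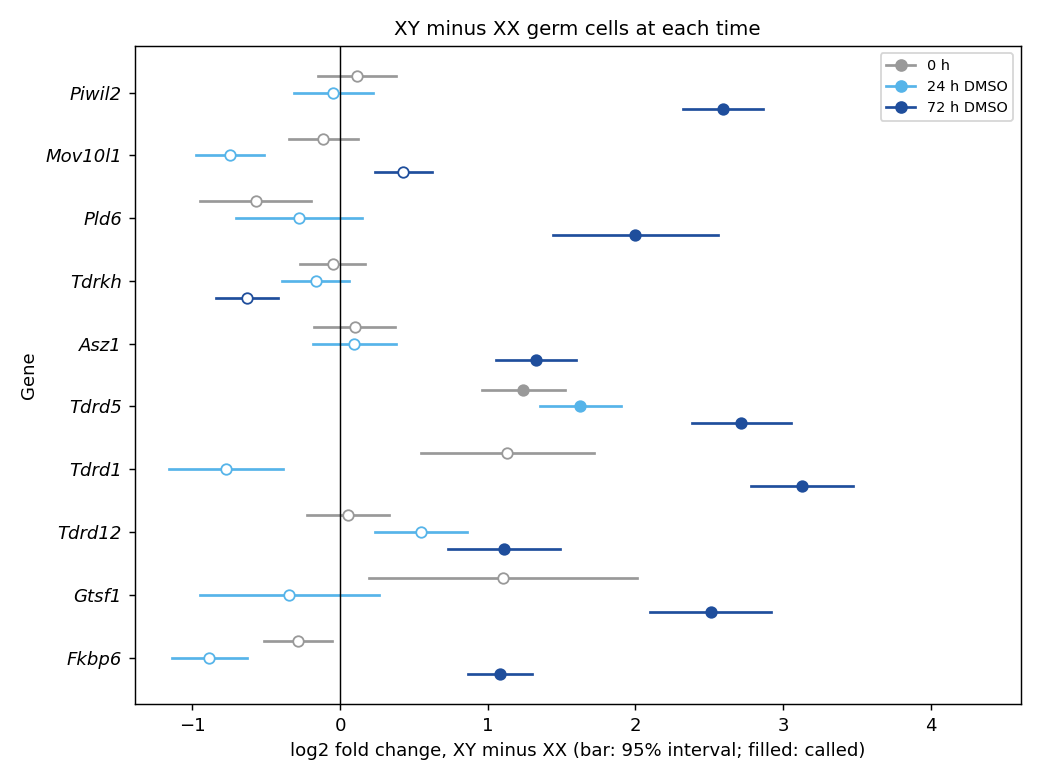
The log2 fold change of XY over XX germ cells is on the horizontal axis and the 10 genes are on the vertical axis; colours mark 0 h, 24 h DMSO and 72 h DMSO, bars are 95% intervals and filled points are genes called. Only *Tdrd5* has filled points at all 3 times, and at 72 h 8 genes lie to the right with filled points while *Tdrkh* lies to the left at -0.63.

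At 24 h 2 members were lower in XY than in XX cells without overlap and without a call (percent lower without overlap over all genes tested, 17.1). The XY libraries held *Fkbp6* at 141, 156, 166 and 236 CPM and the XX ones at 258, 270, 329 and 409 CPM (log2 -0.89 ± 0.13; limma treat, adjusted p = 0.0882). It was called lower in XY with the index-tied counts removed (log2 -0.96, adjusted p = 0.0319) and without XY 24 h DMSO replicate 3 (adjusted p = 0.0244), XX 24 h replicate 4 (adjusted p = 0.0362) or XX 24 h replicate 9 (adjusted p = 0.0452). It was also called with no scaling factor and with edgeR's glmTreat (adjusted p = 0.0305 and 0.0357). *Mov10l1* averaged 158 ± 31.4 CPM in XY against 263 ± 45.8 CPM in XX (log2 -0.74 ± 0.12, adjusted p = 0.434).

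The change in the sex difference was tested directly, as the difference at 72 h minus that at 24 h, in which a shift shared by all libraries of a pool cancels. It was above 0 and called for 8 of 10 genes (percent called higher, 16.2). With a replicate block 4 were called, and *Gtsf1*, *Asz1*, *Mov10l1* and *Tdrd5* lost the call. *Tdrd1* had the largest value, 3.90 ± 0.26 on the log2 scale (limma treat, adjusted p = 5.86e-15), followed by *Gtsf1* (2.86 ± 0.37), *Piwil2* (2.64 ± 0.19), *Pld6* (2.28 ± 0.35), *Fkbp6* (1.97 ± 0.17), *Asz1* (1.23 ± 0.19), *Mov10l1* (1.17 ± 0.15) and *Tdrd5* (1.09 ± 0.22). *Tdrd5* had the weakest call (adjusted p = 0.0456) and lost it with the index-tied counts removed, at 0.75, and without any of 9 of the 16 libraries compared, at 0.95 to 1.09 (adjusted p = 0.0547 to 0.175). It also lost it with no filter on low counts or with only the groups compared (adjusted p = 0.182 and 0.0615). The 9 libraries were XX 24 h replicates 4, 6 and 9, XY 24 h replicates 2 and 4, XX 72 h replicates 7 and 11 and XY 72 h replicates 4 and 6. *Tdrd12* (0.56 ± 0.24) and *Tdrkh* (-0.47 ± 0.15) were not called.

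The early levels of *Tdrd1* and *Gtsf1* moved more with the index removal than those of other members, because their first-pool counts were small beside those of their second-pool partners. The median share of a first-pool count that the partner would account for was 52.5% for *Gtsf1* and 38.3% for *Tdrd1*, 14.2% for *Mov10l1*, 12.8% for *Piwil2*, 12.1% for *Fkbp6*, and from 3.71% (*Tdrd12*) to 8.41% (*Pld6*) for the other 5. In single libraries it reached 92.1% for *Gtsf1*, 73.9% for *Tdrd1* and 44.5% for *Tdrd5*. The XY to XX difference at 0 h in *Tdrd1*, 1.13 ± 0.29 on the log2 scale as counted, was 0.23 with removal. That of *Gtsf1* went from 1.10 ± 0.45 to -0.37. Neither was called either way, whereas the *Tdrd5* difference at 0 h was 1.24 as counted and 1.14 with removal, and was called both times.

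**Figure D3:**
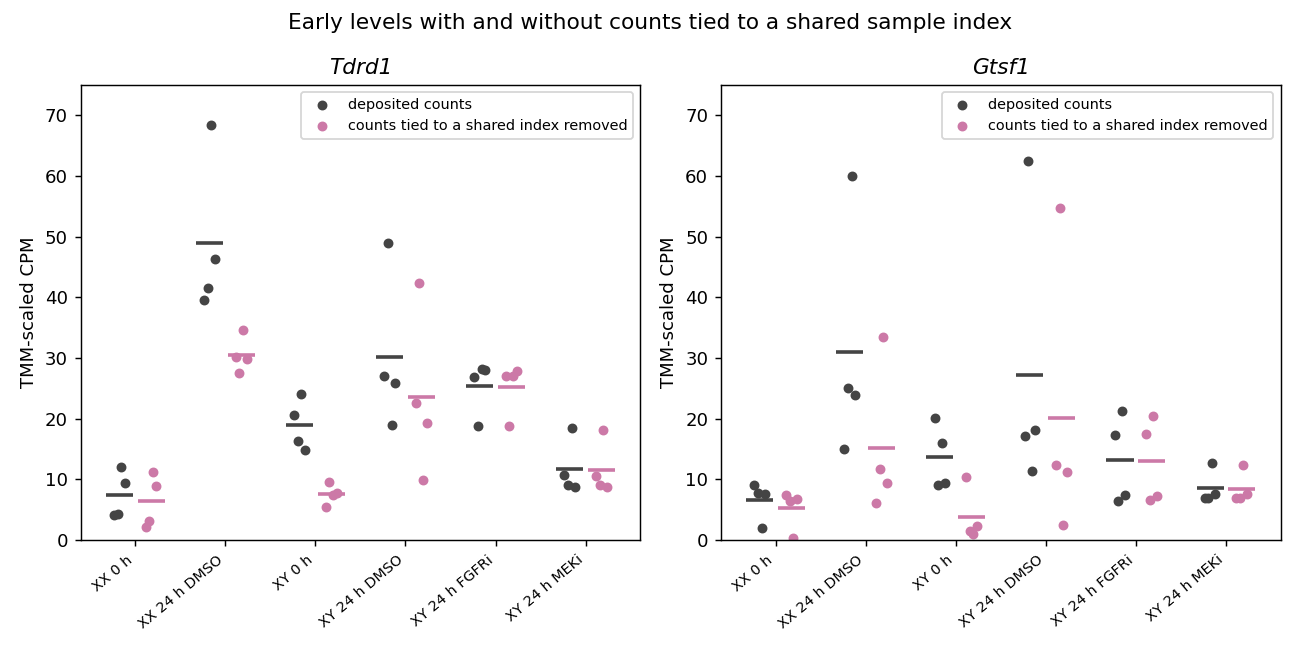
TMM-scaled CPM of *Tdrd1* and *Gtsf1* is on the vertical axis for the 6 groups at 0 h and 24 h; grey points are libraries as deposited, pink points are the same libraries after removal of counts tied to a shared index, and short lines are means. The *Tdrd1* mean in XY 0 h goes from 19.0 to 7.56 CPM, while the XY 24 h FGFRi and MEKi libraries, which share no index, stay nearly where they were.

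Inhibition of MEK1/2 for 72 h lowered 3 of the 10 genes below DMSO and raised none (percent called lower, 5.11). *Tdrd1* was at 116, 118, 128 and 138 CPM with MEKi and at 278, 282, 295 and 346 CPM with DMSO, a log2 change of -1.25 ± 0.11 (limma treat, adjusted p = 7.79e-06). *Gtsf1* was at 110, 123, 126 and 167 CPM against 231, 262, 278 and 306 CPM (log2 -1.07 ± 0.15, adjusted p = 0.0133). *Tdrd5* was at 81.9, 83.9, 97.2 and 97.9 CPM against 170, 174, 178 and 200 CPM (log2 -0.96 ± 0.10, adjusted p = 0.00655). In none of the 3 did a MEKi library reach the lowest DMSO library. The *Gtsf1* call was lost without XY 72 h DMSO replicate 2 or MEKi replicates 3 or 4 (adjusted p = 0.0934, 0.141 and 0.0837), and with DESeq2, edgeR's glmTreat, no sample weights or no filter on low counts (adjusted p = 1, 0.0592, 0.0561 and 0.172). The *Tdrd5* call was lost with no scaling factor or no filter on low counts (adjusted p = 0.0931 and 0.169).

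A further 4 members lay below DMSO in every MEKi library without reaching the call, so that 7 of 10 did not overlap (percent lower without overlap over all genes tested, 19.4). *Fkbp6* was at 433, 451, 476 and 562 CPM with MEKi and at 780, 813, 820 and 824 CPM with DMSO (log2 -0.76 ± 0.10; limma treat, adjusted p = 0.258). *Piwil2* was at 221, 248, 257 and 262 CPM against 383 to 459 CPM (log2 -0.71 ± 0.10, adjusted p = 0.516). *Asz1*, at 158 ± 6.08 against 234 ± 21.4 CPM, and *Mov10l1*, at 425 ± 47.1 against 610 ± 56.3 CPM, had log2 changes of -0.57 and -0.55. Their 95% intervals, -0.79 to -0.34 and -0.73 to -0.37, lay below 0 and crossed the 1.5-fold limit of the test. The median log2 change was -0.64 over the 10 genes and 0.01 over all genes tested. *Pld6* (28.9 ± 4.43 against 30.4 ± 2.40 CPM), *Tdrd12* (69.3 ± 7.15 against 68.0 ± 11.9 CPM) and *Tdrkh* (109 ± 12.8 against 129 ± 14.9 CPM) overlapped their controls. The 8 germ cell markers summed to 2493 to 3824 CPM with MEKi and 3080 to 3571 CPM with DMSO, but single markers differed in both directions. *Dnd1* averaged 126 CPM with MEKi and 313 CPM with DMSO and *Mael* 260 and 547 CPM, whereas *Dazl* averaged 1254 and 897 CPM and *Kit* 56.3 and 26.0 CPM. Among the somatic lists, the 3 pre-granulosa markers summed to 14.1 to 21.3 CPM with MEKi and 7.32 to 11.3 CPM with DMSO, without overlap. *Irx3* averaged 8.91 and 1.36 CPM, *Fst* 7.49 and 6.67 CPM and *Foxl2* 1.55 and 0.714 CPM. The study lists *Irx3* among genes raised by MEKi in the germ cells. The 4 endothelial markers summed to 0.496 to 6.94 and 8.78 to 17.5 CPM, also without overlap. *Cdh5* averaged 1.81 and 9.72 CPM, *Kdr* 1.21 and 1.34 CPM, *Emcn* 0.0895 and 0.224 CPM and *Tek*, the other way, 1.29 and 0.924 CPM. Each difference in sum lay mostly in 1 marker. The part of these markers in the members' differences was not tested.

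**Figure D4:**
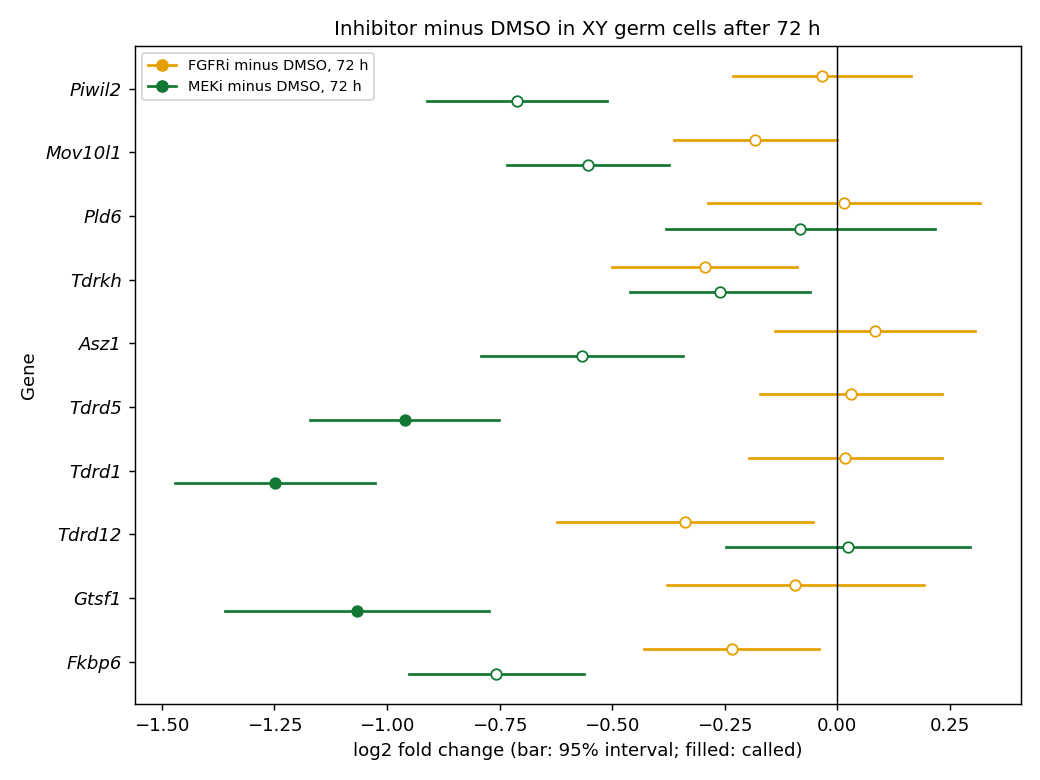
The log2 fold change of 72 h inhibitor over 72 h DMSO in XY germ cells is on the horizontal axis and the 10 genes are on the vertical axis; orange is FGFRi, green is MEKi, bars are 95% intervals and filled points are genes called. The MEKi points of *Tdrd1*, *Gtsf1* and *Tdrd5* are filled at -1.25, -1.07 and -0.96, and no FGFRi point is filled.

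With FGFRi for 72 h no member was called (percent called in either direction, 0.00656), and none had an unadjusted p under 0.05. The 10 changes from DMSO had 95% intervals that together spanned -0.62 to 0.32 on the log2 scale, and every member's libraries overlapped. *Tdrd1* was at 277, 304, 308 and 333 CPM with FGFRi (log2 0.02, interval -0.19 to 0.23), and *Tdrd5* at 147, 184, 195 and 200 CPM (log2 0.03, interval -0.17 to 0.23). *Tdrd12*, at 52.8 ± 12.6 CPM, had the lowest value, -0.34 ± 0.14. Set against each other at the same dose and time, MEKi was lower than FGFRi in 3 genes, *Tdrd1* (log2 -1.27 ± 0.11), *Tdrd5* (-0.99 ± 0.10) and *Gtsf1* (-0.97 ± 0.14), each called (percent called lower, 6.98). The *Gtsf1* difference, with an adjusted p of 0.0379 by limma treat, lost its call without any of 5 of the 8 libraries (MEKi replicates 2, 3 and 4, FGFRi replicates 5 and 6), where adjusted p was 0.0508 to 0.289. It was also lost with no filter on low counts, no sample weights, edgeR's glmTreat or DESeq2 (adjusted p = 0.0645, 0.0679, 0.0717 and 1). These comparisons share the MEKi libraries with those against DMSO. The 7 other members were not called, but *Piwil2* (-0.68 ± 0.10), *Asz1* (-0.65 ± 0.11) and *Fkbp6* (-0.52) were lower with MEKi without overlap, as were the 3 called (percent lower without overlap over all genes tested, 22.4).

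With MEKi present, part of the set still rose above its level before culture. Relative to XY 0 h, 6 of the 10 were higher after 72 h with MEKi (percent called higher, 15.1), *Gtsf1* by 11.1-fold, *Tdrd1* by 7.10-fold, *Mov10l1* by 3.74-fold, *Piwil2* by 3.06-fold, *Fkbp6* by 2.39-fold and *Asz1* by 1.87-fold. On the log2 scale *Gtsf1* was 3.48 higher as counted and 5.64 with the index-tied counts removed, and *Tdrd1* 2.83 and 3.94. The *Asz1* call (limma treat, adjusted p = 0.0335) was lost without XY 0 h replicates 3, 5 or 6 or MEKi replicates 4 or 5 (adjusted p = 0.0561 to 0.248), and with no filter on low counts, no sample weights or DESeq2 (adjusted p = 0.134, 0.0768 and 0.109). The other 4 members were not called, and *Tdrd5* and *Tdrd12* overlapped their 0 h libraries. The share of the DMSO rise in CPM that the MEKi libraries reached was 62.8% ± 9.48 (SD, n = 4) for *Mov10l1*, 49.7% ± 5.54 for *Piwil2*, 48.9% ± 4.11 for *Asz1*, 46.1% ± 9.72 for *Gtsf1*, 46.0% ± 9.39 for *Fkbp6* and 37.7% ± 3.69 for *Tdrd1*. *Tdrd5* stood apart, at 12.1% ± 8.28, with a MEKi level of 90.2 ± 8.53 CPM against 77.8 ± 8.38 CPM in XY 0 h (log2 0.23 ± 0.12). With FGFRi the shares were 84.3% for *Fkbp6*, 88.5% for *Mov10l1* and 96.3% to 112% for the other 5. These shares use the same 0 h and DMSO libraries for every treatment, and the MEKi shares of *Tdrd1* and *Tdrd5* were 40.0% and 16.8% with the index-tied counts removed.

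At 72 h, 6 of 10 genes were higher in XY with MEKi than in XX with DMSO (percent called higher, 17.2): *Pld6* by 3.78-fold, *Piwil2* by 3.69-fold, *Tdrd1* by 3.69-fold, *Tdrd5* by 3.38-fold, *Gtsf1* by 2.72-fold and *Tdrd12* by 2.19-fold. *Tdrkh* was lower in the MEKi-treated XY cells (percent called lower, 12.8), at 93.6, 106, 114 and 124 CPM against 173, 204, 210 and 211 CPM (log2 -0.89 ± 0.10; limma treat, adjusted p = 0.00734). The *Tdrkh* call was lost without MEKi replicates 3 or 4 (adjusted p = 0.0511 and 0.0588) and with no scaling factor (adjusted p = 0.315), that of *Tdrd12* without XX 72 h replicate 8 (adjusted p = 0.0872) and that of *Gtsf1* with DESeq2 (adjusted p = 0.16). *Mov10l1* overlapped between these groups, at 425 ± 47.1 and 452 ± 35.7 CPM.

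After 24 h no member was called with MEKi (percent called in either direction, 0.164) or with FGFRi (percent called in either direction, 0.262). An unadjusted p under 0.05 was given to 1 member with MEKi and none with FGFRi. Against MEKi, 4 members were nevertheless lower in every library than in every DMSO library, *Tdrd1*, *Tdrd5*, *Piwil2* and *Fkbp6* (percent lower without overlap over all genes tested, 6.24). *Tdrd5* was at 70.6, 86.4, 101 and 103 CPM with MEKi and at 126, 134, 146 and 175 CPM with DMSO (log2 -0.69 ± 0.12). *Tdrd1* was at 8.76, 9.03, 10.7 and 18.5 CPM against 18.9, 26.0, 27.0 and 49.0 CPM (log2 -1.23 ± 0.28), which was -1.09 without XY 24 h DMSO replicate 3. With the index-tied counts removed it was -0.80 and the libraries overlapped, while the other 3 members remained separate. edgeR's quasi-likelihood test with an observed 1.5-fold change called 5 members lower here and limma without the fold limit called 3. The summed somatic and blood markers were also higher in these MEKi libraries than in the DMSO ones, as given above, and their part in the differences was not tested. *Gtsf1*, at 6.91, 6.97, 7.67 and 12.7 CPM with MEKi, had a log2 change of -1.19 ± 0.42 as counted, -0.93 without XY 24 h DMSO replicate 3 and -0.38 with the index-tied counts removed.

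With FGFRi at 24 h *Tdrd5* was at 134, 142, 145 and 145 CPM, overlapping DMSO (log2 -0.01, 95% interval -0.24 to 0.22), and *Pld6* and *Tdrkh* lay below all DMSO libraries at 11.4 ± 1.27 and 84.1 ± 7.04 CPM (percent lower without overlap over all genes tested, 6.18). With the index-tied counts removed *Pld6* overlapped DMSO. The difference between the MEKi change at 72 h and that at 24 h was called for none of the 10 genes by limma treat (percent called in either direction, 1.89), and none had an unadjusted p under 0.05. edgeR's quasi-likelihood test and limma without the fold limit each called 1, *Asz1*, whose value was -0.74 ± 0.17: its level was 120 ± 10.9 CPM with MEKi and 111 ± 34.4 CPM with DMSO at 24 h, and 158 against 234 CPM at 72 h.

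The members' courses over the 10 group means of log2 CPM were alike to different degrees. *Tdrd1* and *Gtsf1* were each other's nearest members (Pearson's r = 0.979, n = 10 groups that share scaling and, in the first pool, index partners). The nearest member to *Asz1* was *Piwil2* (r = 0.929), to *Fkbp6* was *Mov10l1* (r = 0.917) and to *Piwil2* was *Tdrd1* (r = 0.941). *Tdrd12* and *Tdrkh* ran opposite to each other (r = -0.841), *Tdrd12* falling and *Tdrkh* rising in XX cells. Against the mean of the 10 standardised courses, *Piwil2* had r = 0.984, *Pld6* 0.713, *Tdrd5* 0.627, *Tdrkh* 0.277 and *Tdrd12* -0.05. The 5 other genes tested that were most like this mean were *Prss45* (r = 0.996), *Mmp19* (0.990), *Rpl3l* (0.990), *1700054O05Rik* (0.989) and *Cacna1h* (0.989). They were chosen on these same group means, so their levels only describe that choice. *Cacna1h*, a calcium channel subunit gene, was at 70.8 CPM in XY 72 h DMSO, 22.9 CPM with MEKi and 4.13 CPM in XX 72 h DMSO.

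A list of 19 other piRNA pathway genes gave 17 that could be tested. Of these, 16 rose in XY cells from 0 h to 72 h (percent called higher over all genes tested, 20.2). At 72 h, 9 were higher in XY than in XX cells (percent called higher, 22.8) and 1, *Mybl1*, was lower (percent called lower, 18.1). With MEKi for 72 h 8 fell (percent called lower, 5.11), none rose, and none was called with FGFRi. Their median log2 change with MEKi was -0.84. The 8 were the PIWI genes *Piwil4* (261 ± 21.0 CPM with DMSO, 61.9 ± 10.8 CPM with MEKi) and *Piwil1* (51.2 ± 12.2 and 12.8 ± 1.65 CPM), *Dnmt3l*, the cofactor of de novo DNA methylation (138 ± 29.0 and 13.4 ± 6.09 CPM), *Spocd1*, which links nuclear piRNAs to methylation (197 ± 26.1 and 19.6 ± 3.77 CPM), *Morc1* (255 ± 16.4 and 79.2 ± 13.0 CPM), *Tdrd9*, a helicase partner of nuclear PIWI function (290 ± 40.2 and 71.5 ± 26.7 CPM), *Henmt1*, the methyltransferase of piRNA 3′ ends (25.3 ± 5.18 and 6.83 ± 2.39 CPM), and *Mael* (547 ± 55.1 and 260 ± 36.1 CPM). Their log2 changes ran from -3.26 for *Spocd1* to -1.07 for *Mael*. *Tdrd1*, the most lowered of the 10 members at -1.25, would stand between *Mael* and *Morc1* (-1.63) in this order. The other 9 genes tested were not called, with log2 changes from -0.84 for *Exd1* to 0.33 for *Mybl1*.

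Of the 10 members, 6 overlap another annotated gene on their own strand, to which 49 to 1210 counts were assigned over the 40 libraries. The overlapping genes carry only predicted-gene or clone names, and reads shared between such genes could have been split or dropped in counting, so the levels of *Piwil2*, *Mov10l1*, *Pld6*, *Tdrd5*, *Tdrd12* and *Tdrkh* carry that uncertainty.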

How the data were processed

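Per the labels and the study's methods, sorted germ cell RNA was primed at the poly(A) tail with a sample index and a molecular identifier, pooled and sequenced. The authors demultiplexed the reads with scPipe, aligned them to GRCm39 with Rsubread, assigned them to exons by strand and deposited counts collapsed by molecular identifier, as raw counts per gene, unfiltered and not normalised. The submitters' processing notes name limma and edgeR.

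The 40 libraries were mapped to 10 groups by the library names in the labels. GENCODE gene symbols matched 40391 of 42422 identifiers, and the rest held 1.05% of counts. Genes were kept with edgeR 4.0.16 filterByExpr (minimum count 10, minimum total 15), which left 15252 genes holding 99.2% of counts and all 10 members. Counts were scaled by TMM and fitted with limma 3.58.1 in R 4.3.3 (voomWithQualityWeights, 1 mean per group over all libraries), as in the study, and tested with treat against a fold change of 1.5, two-sided, with Benjamini-Hochberg adjustment over all genes tested at 0.05. SE and 95% intervals are limma's moderated values and are not adjusted. The p-values measure the spread between pools of gonads, and counts limit the precision of the lowest genes. Means are given ± SD.

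For the index removal, the Y-linked counts of the XX 24 h libraries were divided by those of their index partners, and that share of the partner's count was taken from every gene of each of the 16 libraries. Promoter windows and transcripts came from GENCODE annotation of the GRCm39 genome. The fits were tested on simulated data. Alternatives were another scaling, no scaling factor, no low-count filter, no sample weights, edgeR, DESeq2 1.42.0, no fold limit in the test, the compared groups alone, a replicate block, the index removal and each library left out.

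All 10 members are named, each other pathway gene is named where called with 72 h MEKi, and 5 genes are named by likeness, over the group means of log2 CPM (prior count 2). *Exd1*, *Mybl1* and the single germ cell, pre-granulosa and endothelial markers were named outside this rule, after their values were seen. The members, lists, motifs and tests were chosen with earlier results of these data known.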

Additional observations from a re-analysis of the deposited data

Results flagged for a closer look

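In 5 of the 100 sets of 4 libraries (10 genes in 10 groups), 1 library lay far from the other 3 by Dixon's test, and chance flags about 1 in 20. These were *Mov10l1* in XX 24 h DMSO replicate 6 (332 CPM, the others 238 to 242 CPM), *Gtsf1* in XY 24 h DMSO replicate 3 (62.5 CPM, the others 11.3 to 18.1 CPM), *Gtsf1* in XY 24 h MEKi replicate 4 (12.7 CPM, the others 6.91 to 7.67 CPM), *Tdrd1* in XY 24 h FGFRi replicate 3 (18.7 CPM, the others 26.9 to 28.1 CPM) and *Tdrkh* in XY 72 h FGFRi replicate 6 (128 CPM, the others 97.4 to 102 CPM). XY 24 h DMSO replicate 3 was also the highest of its group for the other 9 genes. No cause was tested.

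The XY minus XX difference changed between 24 h and 72 h, by a direct test of that change (limma treat), in 8 genes. The changes on the log2 scale were 3.90 for *Tdrd1*, 2.86 for *Gtsf1*, 2.64 for *Piwil2*, 2.28 for *Pld6*, 1.97 for *Fkbp6*, 1.23 for *Asz1*, 1.17 for *Mov10l1* and 1.09 for *Tdrd5*, whose call was lost with the index-tied counts removed. With a replicate block the calls of *Gtsf1*, *Asz1*, *Mov10l1* and *Tdrd5* were lost.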

How the results depend on the processing

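Of 59 member and comparison pairs that were called, all 59 kept their direction under the 11 alternatives and the 40 omissions of 1 library that could be fitted for them, and 43 kept their call under all of these. The number of members called moved by more than 1.5 times as follows. With no fold limit in the test (an observed 1.5-fold change only), edgeR's quasi-likelihood test and limma called 2 and 2 for XY against XX at 0 h (1 with the limit), 5 and 4 at 24 h (1), 3 and 2 for XY 24 h against 0 h (0), 6 and 7 for XX 72 h against 24 h (0), 5 and 3 for MEKi at 24 h (0), 5 and 5 for MEKi at 72 h (3), 5 and 5 for MEKi against FGFRi (3) and 1 and 1 for the MEKi change at 72 h against 24 h (0). edgeR's glmTreat called 2 for XY against XX at 24 h, 1 for XY 24 h against 0 h and 3 for XX 72 h against 24 h. Without a scaling factor, 2 were called for XY against XX at 24 h. With no filter on low counts, 1 was called with MEKi at 72 h, *Tdrd1*. For XX 72 h against 24 h, where none was called, 2 were called with DESeq2 size factors, with no filter and with DESeq2's test, and 1 with no scaling factor, with no sample weights and with only the groups compared. Other scalings moved the median log2 change of all genes by up to 0.12 (DESeq2 size factors) and 0.23 (no scaling factor, MEKi 72 h against XY 0 h). Removal of index-tied counts gave 2 for XY against XX at 24 h and 3 for XX 72 h against 24 h.

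Leaving out 1 library gave 1 to 2 members for XY against XX at 24 h, 0 to 2 for XX 72 h against 24 h, 2 to 3 for XX 24 h against 0 h, 2 to 3 for MEKi at 72 h and 2 to 3 for MEKi against FGFRi.

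Same-numbered libraries did not deviate together throughout: over 12 comparisons, with 1 to 4 shared numbers each, their correlations ran from -0.27 to 0.29. They were not all above 0.1, so replicate numbers were not taken as pairs. For MEKi against DMSO at 72 h all 3 were above 0 (0.06 to 0.29, median 0.07, with a median of -0.08 for other pairs). Those for MEKi at 72 h against XY 0 h were also above 0 (0.02 to 0.24). With a replicate block, 1 member was called for XX 24 h against 0 h (3 without), 1 for XX 72 h against 24 h (0 without) and 4 for the change in the sex difference (8 without), where *Mov10l1*, *Asz1*, *Tdrd5* and *Gtsf1* lost the call. Under the block the calls of *Mov10l1* and *Gtsf1* for XX 24 h against 0 h, of *Tdrd12* and *Tdrkh* for XX 72 h against 0 h and of *Gtsf1* for MEKi at 72 h against DMSO and against FGFRi (adjusted p = 0.141 and 0.252) were also lost. The block was not defined for comparisons between the sexes at 1 time. At these depths the early levels of *Gtsf1* and *Tdrd1* rest on few counts, down to 5 in a library.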
